A study of Mus musculus with 6 samples.

Results

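Follistatin, the activins and the activin receptors form a signalling set of 10 mouse genes, followed here in liver. The members were taken by symbol from the deposited count table, where all 10 were found among 55401 genes. They are the antagonist genes Fst and Fstl3, the inhibin beta chain genes Inhba, Inhbb, Inhbc and Inhbe, the type I receptor genes Acvr1 and Acvr1b, and the type II receptor genes Acvr2a and Acvr2b. The set was proposed with results of these libraries known, and so counts as selected on the measured fold changes between OP and HFCF. All values of the members in this contrast, and whether they passed the threshold, are therefore a description. No p-value of a member is printed.

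Polyadenylated RNA from fresh livers of C57BL/6 mice was sequenced in 6 libraries. The 3 HFCF libraries came from animals fed high fat, cholesterol and fructose, and the 3 OP libraries from animals given okra polysaccharide, a plant carbohydrate preparation. The labels give no age, dose or duration, do not name the diet of the OP animals, and do not say whether the 3 libraries of a group came from separate animals. The spread between libraries may therefore be partly technical. The title of the series names a metabolic fatty liver model. No animals on a plain diet enter the comparison.

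Activins are dimers of inhibin beta chains. They bind a type II receptor on the cell surface, which recruits and activates a type I receptor, and the type I receptor phosphorylates SMAD2 and SMAD3. Follistatin binds activins A and B and the related ligand myostatin and keeps them from their receptors. The liver is a main source of circulating follistatin, whose output rises with glucagon and fasting, and hepatocytes are also the main site of Inhbc and Inhbe expression.

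Library totals ran from 46459980 to 61918541 counts, and a count of 0 allows a level of up to 0.0472 to 0.0624 CPM, that of 3 counts, for counting error only. CPM here are counts divided by each library's TMM-adjusted size and brought to a common total. HFCF replicates 1 and 2 were closer to each other than any other same-group pair (chi-square per degree of freedom of 46.2, against 148 to 350). The share of counts in mitochondrially encoded mRNAs was 14.1% to 22.0% in HFCF and 6.08% to 14.4% in OP. The summed level of 10 hepatocyte markers was 40209 to 62827 CPM in HFCF and 59848 to 88965 CPM in OP, and 1 of them rose (Ttr) and 1 fell (Cps1). Of these 10 markers, 7 had an unadjusted p under 0.05 in edgeR, 5 passed by DESeq2, and 6 did not overlap between the groups, 4 lying above in OP and 2 below. Of the 10 stellate cell, 10 sinusoidal endothelial, 10 Kupffer cell and macrophage, 7 cholangiocyte and 8 lymphocyte markers tested, 45 in all, 0 passed the edgeR test named below at an adjusted p under 0.05, while 6 had an unadjusted p under 0.05 and 4 passed by DESeq2. Of all 17394 tested genes, 6.73% passed the edgeR test, 4385 had an unadjusted p under 0.05 and 2534 passed by DESeq2. The groups did not overlap in 31.2% of them. Fold changes on the log2 scale lay below 0 in 8 of 10 Kupffer cell and macrophage, 7 of 7 cholangiocyte and 6 of 8 lymphocyte markers. They did so in 3 of 10 stellate cell and 3 of 10 sinusoidal endothelial markers. Of 5 red blood cell markers, 4 globin genes fell, and the summed level went from 941 to 1767 CPM in HFCF to 192 to 414 CPM in OP. The remaining marker, Alas2, went the other way, at 47.85 to 53.8 CPM in HFCF and 59.5 to 70.1 CPM in OP. Its groups did not overlap, and it did not pass the edgeR test. The 6 adipocyte markers summed to 6.51 to 26.5 CPM in HFCF and 17.5 to 86.6 CPM in OP. Cfd, the gene of the adipose protein adipsin, was at 0, 0.104 and 3.32 CPM in HFCF and at 12.2, 26.5 and 63.0 CPM in OP, without overlap (adjusted p = 0.0626 in the edgeR test). Adipoq was at 0 in HFCF replicates 1 and 2 and in OP replicate 1, and its groups overlapped. The part of these shifts in the members' values was not tested.

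Among the members, Fst and Acvr1b were lower in OP, Inhbb, Inhbc and Inhbe were higher, and Inhba, Acvr1, Acvr2a and Acvr2b did not pass. Fstl3 had too few counts to be tested. These 5 of 9 tested members had a Benjamini-Hochberg adjusted p under 0.05 by the quasi-likelihood test of edgeR, as did 6.73% of all 17394 tested genes. In the same 5 members the OP libraries lay wholly above (3 members) or wholly below (2 members) the HFCF libraries. Of all tested genes 31.2% did so in either direction, 15.8% above and 15.4% below. Because the members were chosen with this contrast in view, nothing is read from either count.

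**Figure D1:**
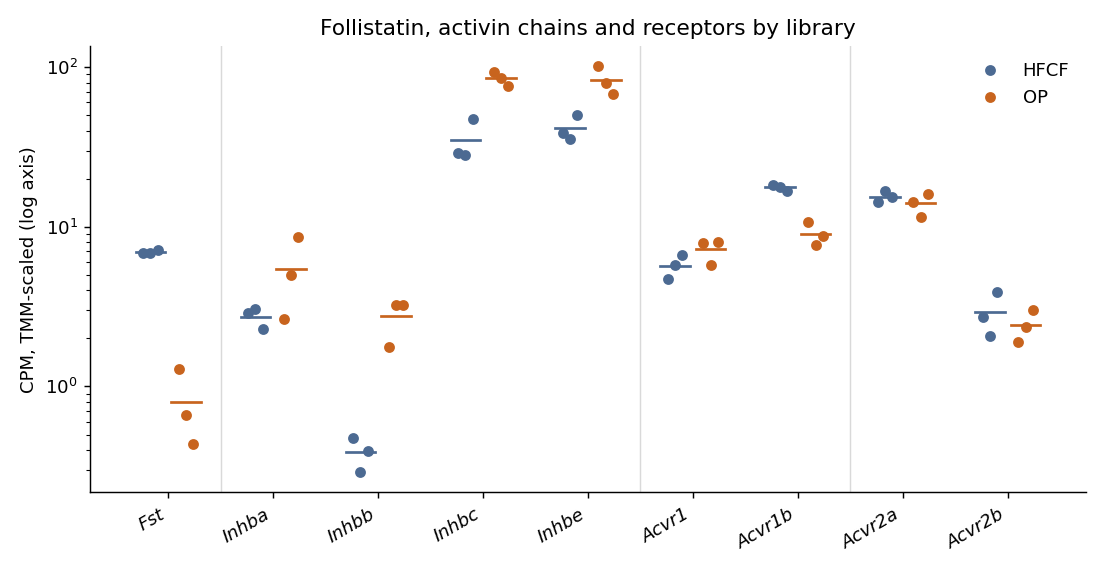
Expression of 9 members in each of the 6 libraries, in CPM after TMM scaling on a log axis; points are libraries, bars are group means, grey lines separate antagonist, beta chains, type I and type II receptors. Fstl3 is left out because 5 of its 6 libraries had 0 counts. The 3 OP points of Fst lie between 0.437 and 1.28 CPM, below all HFCF points, and those of Inhbb between 1.77 and 3.25 CPM, above them.

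Fst, the gene of follistatin, stood at 6.80, 6.84 and 7.20 CPM in HFCF replicates 1, 2 and 3, from 328, 329 and 436 counts. In OP replicates 1, 2 and 3 it stood at 1.28, 0.660 and 0.437 CPM, from 77, 42 and 21 counts. The HFCF libraries were nearly level with each other, while the OP libraries differed among themselves and all lay far below. The mean went from 6.95 ± 0.219 CPM (SD, n = 3) to 0.794 ± 0.438 CPM (SD, n = 3), a log2 fold change of -3.12 ± 0.389 (SE), or 8.69-fold lower. Among 573 genes called lower with a mean of at least 1 CPM, Fst had the 18th largest fall. The fitted change was -2.83 without OP replicate 3 and -3.65 without OP replicate 1, and the call held whichever library was left out. In whole liver, fewer cells of a type and less RNA per cell cannot be told apart, for Fst or any other gene here.

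In the GENCODE M21 annotation, 115 exon bases of Fst lie opposite the predicted gene Gm47040, which was not tested. Its libraries held 10, 4 and 3 counts in HFCF and 0, 4 and 6 in OP.

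Fstl3, which encodes a follistatin-like antagonist of activins, had 0 counts in each HFCF library. Its OP libraries held 9, 0 and 0 counts. At this depth Fstl3 was at or near the level that a count of 0 allows, and no change can be read from it.

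The beta chains differed widely in level. Per length of merged exons, in RPKM (CPM per kilobase), Inhbc stood at 15.5, 15.2 and 25.4 in the HFCF libraries and at 50.0, 45.7 and 41.2 in the OP libraries. Inhbe stood at 7.26, 6.64 and 9.48 RPKM in HFCF and at 19.0, 15.0 and 12.8 RPKM in OP. Inhba, by contrast, stood at 0.451, 0.475 and 0.357 RPKM in HFCF, and Inhbb at 0.112, 0.0684 and 0.0931 RPKM. Inhbc and Inhbe together made up 92.4% to 97.8% of all beta chain counts in every library, and the groups overlapped in this share.

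Inhbb, whose chain forms activin B, was the member with the largest rise. It had 23, 14 and 24 counts in HFCF replicates 1, 2 and 3 and 106, 206 and 156 counts in OP replicates 1, 2 and 3. In CPM these were 0.477, 0.291 and 0.396 against 1.77, 3.24 and 3.25. The groups did not overlap, and OP replicate 1 was the lowest of the OP libraries. The log2 fold change was 2.82 ± 0.403 (SE), 7.05-fold higher, on HFCF counts low enough that counting error adds to the spread. The call was lost without HFCF replicate 1 (2.99) or HFCF replicate 2 (2.62), with little change in the value. Over all tested genes, calls went from 1170 to 112 and 88 in the same fits.

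Inhbc, whose chain forms activin C, had 28.8, 28.2 and 47.2 CPM in HFCF replicates 1, 2 and 3. Its OP replicates 1, 2 and 3 had 93.0, 85.0 and 76.6 CPM. HFCF replicate 3 lay nearest to the OP libraries, and the groups did not overlap. The fit gave a log2 fold change of 1.29 ± 0.219 (SE), 2.44-fold higher. It was no longer called without HFCF replicate 1 (1.17), without HFCF replicate 2 (1.12) and without OP replicate 1 (1.22), and the value was 1.58 without HFCF replicate 3.

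Inhbe encodes the chain of activin E, a liver-secreted protein. It had 38.6, 35.3 and 50.4 CPM in HFCF replicates 1, 2 and 3 and 101, 79.9 and 67.9 CPM in OP replicates 1, 2 and 3. HFCF replicate 3 was again the highest HFCF library and OP replicate 3 the lowest OP library, and the groups did not overlap. This was a log2 fold change of 1.002 ± 0.200 (SE), 2.002-fold higher. Leaving out HFCF replicate 1 (0.95) or 2 (0.86), or OP replicate 1 (0.83) or 2 (1.03), ended the call.

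Inhbc and Inhbe lie next to each other on the same chromosome, and their CPM ranked the libraries in the same order within HFCF and within OP. The ratio of Inhbc to Inhbe counts, in which library scaling cancels, was 0.745, 0.798 and 0.935 in HFCF and 0.919, 1.06 and 1.13 in OP. These ratios overlapped between the groups. Of 5 genes close to the pair, Stac3 and Mars1 lay wholly above in OP, Gli1 lay wholly below, and Arhgap9 and R3hdm2 overlapped. Of all tested genes 31.2% did not overlap, and none of the 5 passed the edgeR test. Gli1, a transcription factor of hedgehog signalling next to Inhbe, had 26, 41 and 40 counts in HFCF and 8, 4 and 8 in OP (log2 fold change -2.49 ± 0.631, SE; adjusted p = 0.0532 in edgeR's quasi-likelihood test). R3hdm2, next to Inhbc, was at 66.4 ± 5.01 and 73.1 ± 11.2 CPM (SD, n = 3 each; adjusted p = 0.626 in the same edgeR test). Stac3 was at 1.31, 1.87 and 2.06 CPM in HFCF and at 2.35, 4.28 and 3.02 CPM in OP (log2 fold change 0.88 ± 0.328, SE; adjusted p = 0.141 in the same edgeR test). Mars1 was at 37.1 ± 3.01 and 40.6 ± 0.546 CPM and Arhgap9 at 5.44 ± 1.67 and 3.31 ± 0.560 CPM (SD, n = 3 each). Their adjusted p in the same edgeR test was 0.570 and 0.162. The lowest OP library of Mars1 (40.0 CPM) was barely above its highest HFCF library (39.0 CPM). These genes were chosen for their place and named after their values were seen.

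Upstream sequence is shown for Inhbb and Inhbc because they rose and their annotated starts leave a clean window. It covers the 250 bases before the start in RefSeq on GRCm38.p6, chr1:119422249-119422498 for Inhbb and chr10:127370549-127370798 for Inhbc, both on the minus strand and written 5′ to 3′ along the gene. Of the 10 members, 9 had a promoter entry, and the one without was Fst. Capitals mark matches to the motifs searched on both strands.
Inhbb: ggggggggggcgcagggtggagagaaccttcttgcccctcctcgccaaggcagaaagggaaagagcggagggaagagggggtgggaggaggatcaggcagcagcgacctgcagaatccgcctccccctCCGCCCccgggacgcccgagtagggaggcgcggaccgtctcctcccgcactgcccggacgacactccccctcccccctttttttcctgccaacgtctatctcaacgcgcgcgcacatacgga
Inhbc: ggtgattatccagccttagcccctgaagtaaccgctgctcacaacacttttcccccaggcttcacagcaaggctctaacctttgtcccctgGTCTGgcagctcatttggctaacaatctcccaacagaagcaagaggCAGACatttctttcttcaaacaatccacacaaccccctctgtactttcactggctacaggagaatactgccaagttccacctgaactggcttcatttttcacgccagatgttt
The Inhbb window is 68.0% G and C and holds 1 match to GGGCGG, the GC box. The Inhbc window is 48.8% G and C and holds 2 matches to CAGAC, the core of a SMAD binding element. Of 32851 RefSeq windows of the same length, 32.7% hold GGGCGG and 42.2% hold CAGAC. The other motifs searched were TATAAA (12.4% of windows), CCAAT (33.85%), AGGTCA (14.02%), the half-site of several nuclear receptors, and TGACG (17.8%), the half-site of the cAMP response element. Their letters are not in these windows, from which nothing is drawn about the factors.

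Inhba, whose chain forms activin A, was at 2.88, 3.03 and 2.28 CPM in HFCF replicates 1, 2 and 3. In OP replicates 1, 2 and 3 it was at 2.63, 4.97 and 8.66 CPM. OP replicate 1 lay within the HFCF range and OP replicate 3 far above it. Its log2 fold change of 0.99 ± 0.404 (SE) did not pass, and it was 0.48 without OP replicate 3. Within OP, the library with the most Inhba was the one with the least Fst, and the library with the least Inhba had the most Fst.

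The balance of Fst against the chains of activins A and B can be read within each library, without scaling between libraries. The level of Fst per length was 2.63, 2.74 and 3.49 times the summed level of Inhba and Inhbb in HFCF replicates 1, 2 and 3. In OP replicates 1, 2 and 3 it was 0.338, 0.0935 and 0.0450 times that sum. The level of Fst was above that of those chains in each HFCF library and below it in each OP library. Within OP this ratio ranged over several-fold, with replicate 1 the highest. The ratio of Inhbb to Inhba per length was 0.248, 0.144 and 0.261 in HFCF and 1.01, 0.979 and 0.563 in OP, so the 2 chains were nearer to each other in OP.

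**Figure D2:**
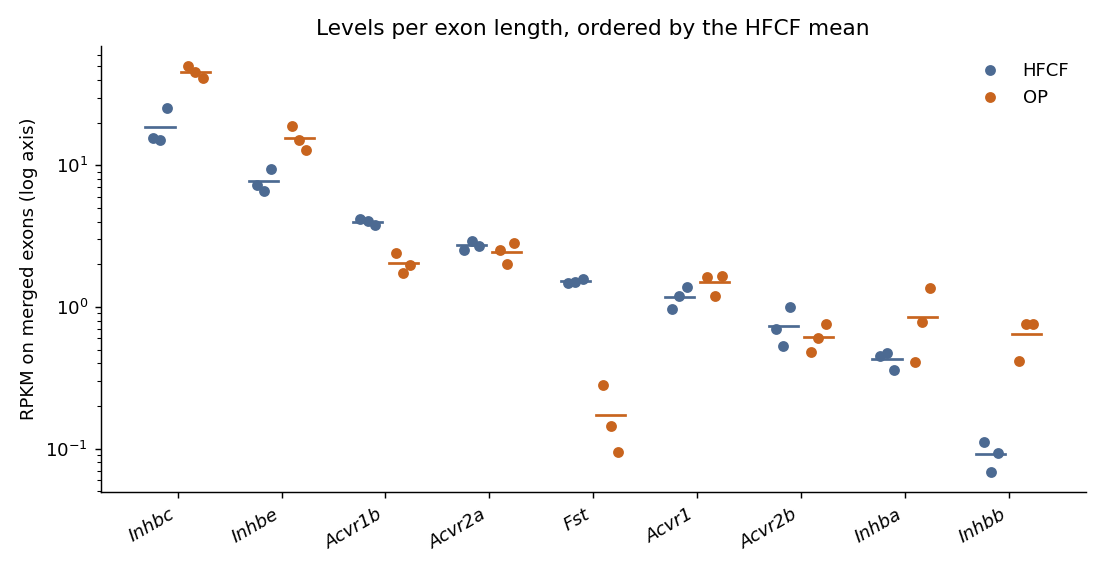
Level of 9 members per length of merged exons, in RPKM on a log axis, in each of the 6 libraries; points are libraries, bars are group means, and genes run from the highest to the lowest HFCF mean. Fst lies in the middle of the HFCF order at 1.51 RPKM and below all other plotted members in OP at 0.173 RPKM.

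By mean RPKM the HFCF order ran Inhbc, Inhbe, Acvr1b, Acvr2a, Fst, Acvr1, Acvr2b, Inhba, Inhbb and Fstl3. Neighbours in this order did not overlap over their libraries except Acvr1 (1.18 ± 0.206 RPKM, SD) and Acvr2b (0.739 ± 0.234 RPKM, SD). In OP, Fst moved from the 5th to the 9th place and Inhbb from the 9th to the 7th. There Acvr2a overlapped Acvr1b, and Acvr1, Inhba, Inhbb and Acvr2b overlapped in turn. On the longest transcript, the OP mean of Acvr1 (2.20 RPKM) was above that of Acvr1b (2.04 RPKM). That of Acvr2b (0.762 RPKM) was then above that of Inhbb (0.647 RPKM). The place of Inhbe below Inhbc depends on its gene model, since RefSeq and GENCODE start Inhbe at different positions and the exon length used here is GENCODE's.

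Acvr1b is a type I receptor, also called ALK4, through which activins A and B signal to SMAD2 and SMAD3. It stood at 18.4, 17.8 and 16.7 CPM in HFCF replicates 1, 2 and 3. In OP replicates 1, 2 and 3 it stood at 10.7, 7.66 and 8.76 CPM. The groups did not overlap, and each was tight. The log2 fold change was -0.96 ± 0.166 (SE), 1.95-fold lower. The call was lost without HFCF replicate 1 (-0.93) or HFCF replicate 2 (-0.99).

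Acvr1, the type I receptor also called ALK2 that mainly serves bone morphogenetic proteins (BMPs), was at 4.69, 5.76 and 6.67 CPM in HFCF and at 7.90, 5.79 and 8.02 CPM in OP. OP replicate 2 lay among the HFCF libraries. The log2 fold change was 0.34 ± 0.221 (SE) and did not pass. The ratio of Acvr1b to Acvr1 per length of merged exons was 4.28, 3.39 and 2.73 in HFCF and 1.48, 1.45 and 1.20 in OP. The groups did not overlap. The size of this ratio depends on the gene model. On the longest transcript, Acvr1 was at 1.73 RPKM in HFCF and 2.20 RPKM in OP, and Acvr1b at 3.99 and 2.04 RPKM.

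The type II receptors, which bind the ligand first, showed no change past the test. Acvr2a was at 14.4, 16.6 and 15.4 CPM in HFCF and at 14.4, 11.5 and 16.1 CPM in OP, a log2 fold change of -0.14 ± 0.167 (SE). Acvr2b was at 2.74, 2.08 and 3.90 CPM in HFCF and at 1.899, 2.36 and 3.00 CPM in OP, a log2 fold change of -0.27 ± 0.324 (SE). In both genes the groups overlapped. Both values are smaller than their standard errors, which does not show that these receptors stayed the same. Acvr2a shares 446 exon bases with Orc4 on the opposite strand, and Orc4 was at 16.0 ± 0.672 and 21.1 ± 7.68 CPM (SD, n = 3 each). Whether the counting used strand is not stated in these sources.

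**Figure D3:**
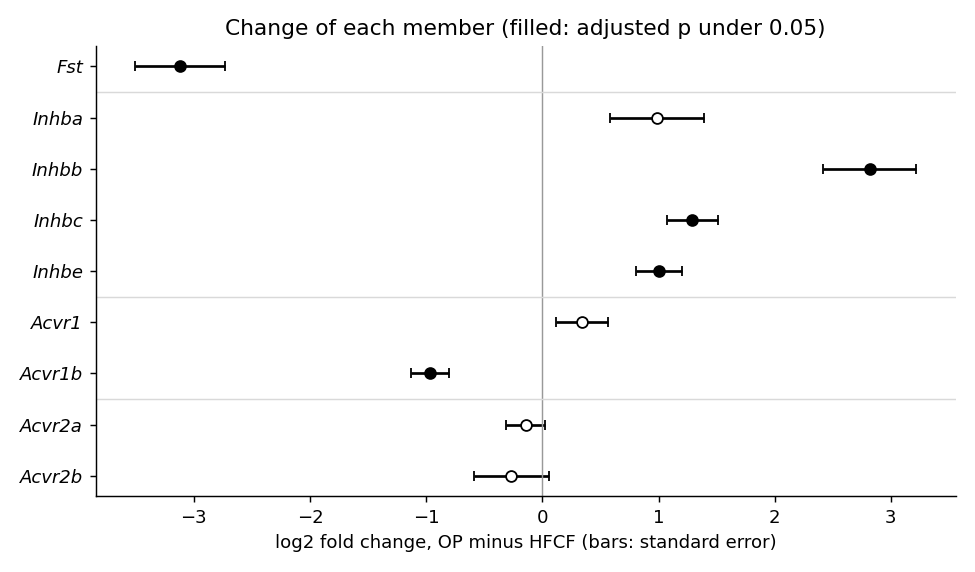
Log2 fold change of 9 members, OP minus HFCF, with standard errors as bars; filled points had an adjusted p under 0.05 and grey lines separate the roles. Fst lies at -3.12 and Inhbb at 2.82, and the type II receptors lie near 0.

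The calls of Inhbb, Inhbc, Inhbe and Acvr1b were each lost when some single library was left out, and that of Fst was not. Calls over all tested genes also went down in these fits. They numbered 1170 as reported, 112 without HFCF replicate 1, 88 without HFCF replicate 2, 203 without OP replicate 1 and 661 without OP replicate 2. A lost or kept call is therefore not particular to a member. Without HFCF replicate 1 or 2, Fst lay just inside the threshold and Inhbb just outside it. With the mitochondrial mRNA share as a covariate, which went largely with the group, Fst was at -3.75 ± 0.622 (SE) and Inhbb at 3.08 ± 0.601 (SE). The changes of Inhbc and Inhbe were then 0.81 ± 0.240 and 0.55 ± 0.240 (SE), against 1.29 and 1.002 without it. Inhba moved the other way, from 0.99 to 1.79 ± 0.497 (SE), and was not called. Under this covariate Fst alone of the members kept its call, close to the threshold.

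**Figure D4:**
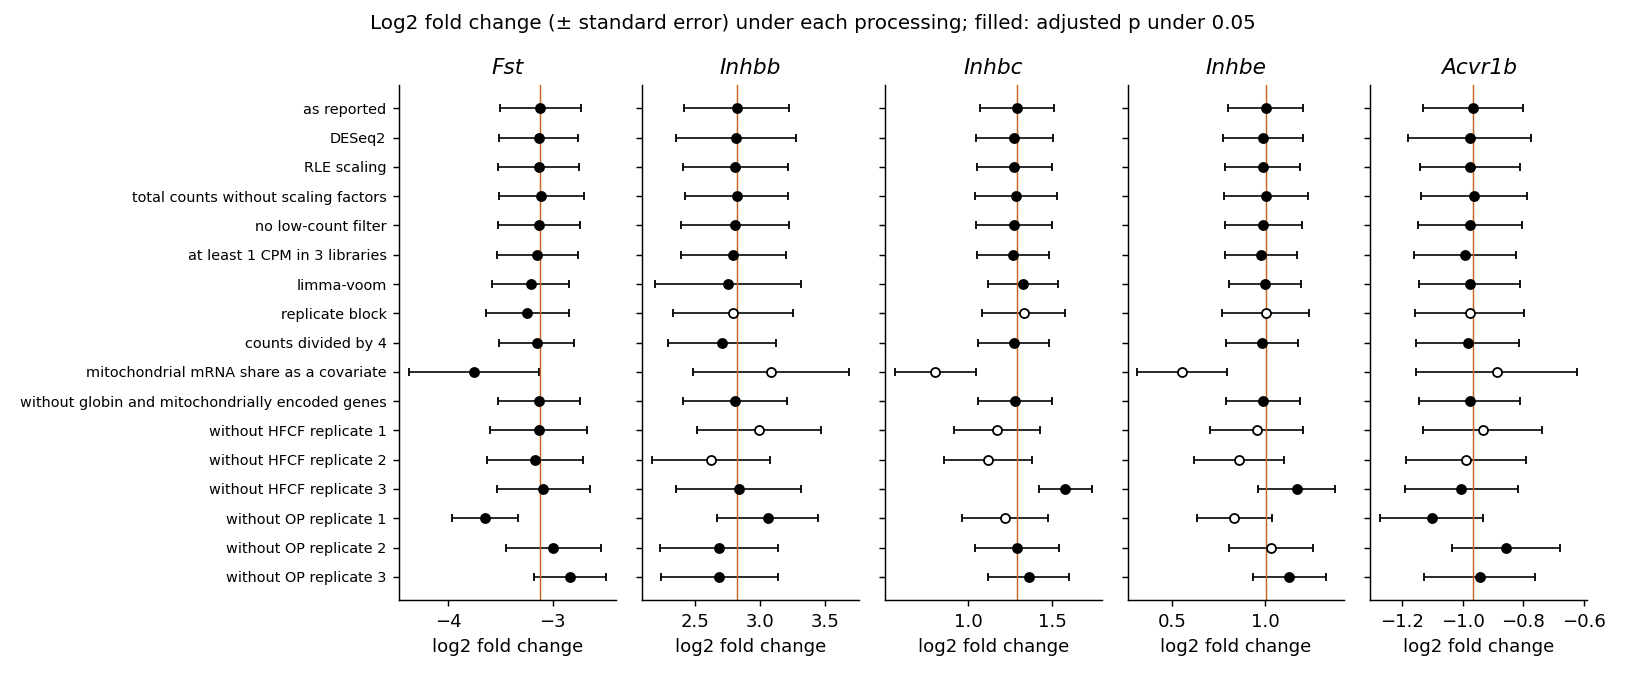
Log2 fold change of the 5 called members with standard errors under 17 ways of processing, from the reported fit at the top through other tools, scalings, filters and covariates to leaving out each library; filled points had an adjusted p under 0.05 and the line marks the reported value. Fst is filled in all 17 rows, while Inhbb is open in 4 rows, Inhbc in 5, Inhbe in 6 and Acvr1b in 4.

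The other genes of the transforming growth factor beta (TGF-beta) family were described in 7 lists of ligands, antagonists, receptors, SMAD proteins and response genes. Of 101 listed genes, 79 were tested, and at an adjusted p under 0.05 by edgeR 1 rose and 1 fell. Over all tested genes 3.26% rose and 3.47% fell. For the 79 genes the median change was 0.08 on the log2 scale, against 0.02 over all tested genes. By DESeq2 7 of the 79 passed, and 12 had an unadjusted p under 0.05 in edgeR. Of all 17394 tested genes, 2534 passed by DESeq2 and 4385 had an unadjusted p under 0.05 in edgeR. These totals are also the background for the counts given for each list below.

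Twsg1, a secreted regulator of BMP binding, rose from 17.4, 18.5 and 20.1 CPM in HFCF to 31.2, 34.0 and 28.7 CPM in OP. Its log2 fold change was 0.75 ± 0.137 (SE; adjusted p = 0.0203 in edgeR's quasi-likelihood test), with no overlap of the groups. The list of other secreted antagonists had 8 of 17 genes tested and a median of -0.026. Of its remaining 7 tested genes, Chrd, the BMP antagonist chordin, was at 22.1 ± 3.66 and 15.4 ± 7.06 CPM and Fstl1 at 3.61 ± 0.736 and 3.24 ± 1.08 CPM (SD, n = 3 each).

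Among 15 tested genes that respond to SMAD2 and SMAD3, Junb, a subunit of the AP-1 transcription factor and an immediate early gene, fell from 43.2, 25.8 and 66.7 CPM to 10.3, 12.6 and 11.6 CPM. Its log2 fold change was -1.97 ± 0.311 (SE; adjusted p = 0.0127 in edgeR's quasi-likelihood test). The HFCF libraries of Junb were spread widely and the OP libraries were close together. Junb shares 173 exon bases with Prdx2 on the opposite strand, which was at 107 ± 13.5 and 138 ± 13.5 CPM (SD, n = 3 each). The other 14 genes of this list did not pass, and the median was 0.24. Fn1, the gene of fibronectin, was at 521 ± 71.6 and 615 ± 64.5 CPM and Tgfbi, an extracellular matrix gene, at 38.9 ± 6.35 and 48.1 ± 9.57 CPM (SD, n = 3 each).

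The calls of Twsg1 and Junb were lost when HFCF replicate 1 or OP replicate 1 was left out, and under the mitochondrial covariate. Of the pair, Junb alone was called without HFCF replicate 2 or OP replicate 2. Leaving out HFCF replicate 1 gave log2 fold changes of 0.70 and -2.004, and leaving out OP replicate 1 gave 0.75 and -1.897. Leaving out HFCF replicate 2 gave 0.70 for Twsg1, and leaving out OP replicate 2 gave 0.68. With the covariate the changes were 0.51 and -2.35.

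Of 19 tested SMAD genes and partners, 0 passed in edgeR's quasi-likelihood test, 4 had an unadjusted p under 0.05 and 2 passed by DESeq2 (Smad9 and Nedd4l). Their median log2 fold change was -0.05. Smad2, Smad3 and Smad4, which carry the activin signal, had log2 fold changes of -0.33 ± 0.207, -0.05 ± 0.156 and -0.02 ± 0.141 (SE). Ppm1a, a phosphatase that acts on SMADs, was at 69.9 ± 8.16 and 84.2 ± 11.4 CPM, and Nedd4l, a ubiquitin ligase, at 43.9 ± 10.2 and 29.7 ± 1.77 CPM (SD, n = 3 each).

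Of 13 tested receptors and co-receptors outside the member set, 0 passed in edgeR, 1 had an unadjusted p under 0.05 and 1 passed by DESeq2 (Bmpr2). Hjv, the BMP co-receptor hemojuvelin, was at 133.6 ± 11.7 and 132.1 ± 20.6 CPM and Eng, the endothelial co-receptor endoglin, at 40.5 ± 6.71 and 50.7 ± 7.15 CPM (SD, n = 3 each). The list of other ligands outside the BMPs holds TGF-beta genes among others and is not limited to activin-type ligands. Of its 9 tested genes, 0 passed in edgeR, 2 had an unadjusted p under 0.05 and 1 passed by DESeq2 (Gdf15). Tgfb1 was at 4.88 ± 1.09 and 6.43 ± 0.896 CPM and Gdf10 at 3.44 ± 1.19 and 5.99 ± 1.87 CPM (SD, n = 3 each). Mstn, the gene of myostatin, had 0 to 5 counts in any library and was not tested.

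Of 8 tested BMP ligands, 0 passed in edgeR, 0 had an unadjusted p under 0.05 and 0 passed by DESeq2. Gdf2, the gene of BMP9, was at 9.50 ± 2.33 and 13.1 ± 3.48 CPM and Bmp2 at 8.30 ± 0.227 and 9.18 ± 2.56 CPM (SD, n = 3 each). Of 7 genes that respond to SMAD1, SMAD5 and SMAD9, 0 passed in edgeR, 3 had an unadjusted p under 0.05 and 1 passed by DESeq2 (Hamp2). Hamp, the gene of the iron hormone hepcidin, was at 1148 ± 202 and 819 ± 105 CPM and Id2 at 82.5 ± 16.0 and 121 ± 37.0 CPM (SD, n = 3 each). Smad2, Smad3, Smad4, Smad9, Bmpr2, Gdf15, Hamp2 and Mstn were named after their values were seen.

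**Figure D5:**
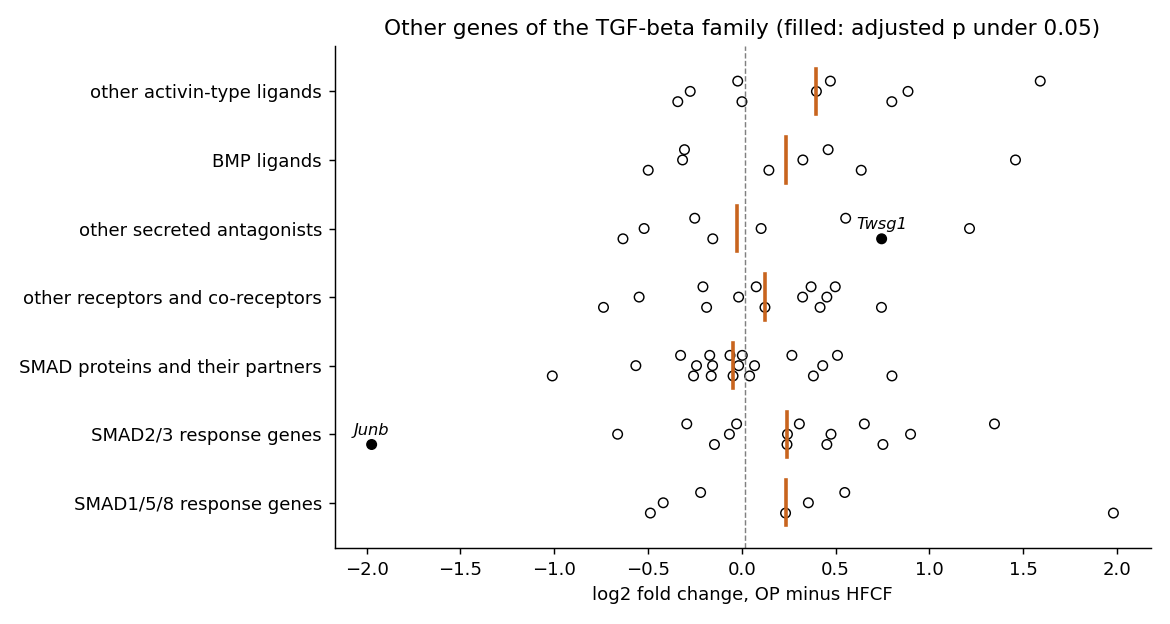
Log2 fold change, OP minus HFCF, of the 79 tested TGF-beta family genes outside the member set, in 7 lists; filled points are the 2 genes with an adjusted p under 0.05, orange bars are list medians and the dashed line is the median of all tested genes. Most open points lie near 0, and Junb (-1.97) and Twsg1 (0.75) are filled.

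The genes whose levels followed Fst most closely over the 6 libraries were Rhobtb3, Mynn, Reck, Ube2u and Cdc27, with Pearson r of log2 CPM of 0.996, 0.995, 0.995, 0.994 and 0.993. The libraries fall into 2 groups far apart in Fst, so this likeness mostly restates the group difference, and 201 of 11870 genes compared had an r of at least 0.95. Reck, which encodes a membrane inhibitor of metalloproteinases, was at 7.76, 9.65 and 8.75 CPM in HFCF and at 2.42, 1.60 and 1.37 CPM in OP, where replicate 1 was again the highest. Cdc27, a subunit of the anaphase-promoting complex, moved far less, from 14.1 ± 0.158 to 12.6 ± 0.262 CPM (SD, n = 3 each), and did not pass the test.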

How the data were processed

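Paired-end poly(A) libraries were made with dUTP in the second strand, per the labels' protocols. The authors deposited 1 table of raw counts per Ensembl gene. Cutadapt 1.9 and build GRCm39 are named in the submitters' processing notes; for the aligner and the counting tool, nothing is given in the sources used here. Symbols matched 55141 of 55401 identifiers, and exon lengths and overlaps came from GENCODE M21 (GRCm38).

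OP was compared with HFCF, 3 libraries each, in edgeR 4.0.16 (R 4.3.3): filterByExpr (17394 of 27893 genes with any count), TMM scaling, glmQLFit and glmQLFTest, two-sided, with p-values adjusted after Benjamini and Hochberg across the whole table and called under 0.05. Standard errors are the log2 fold change over the square root of F. The fit was tested on simulated data, with changes set in genes with a mean of at least 1 CPM. It called 85 of 100 genes changed 4-fold, 28 of 100 changed 2-fold and 10 of 16594 unchanged. A change near 2-fold that was not called is therefore not shown to be absent. DESeq2 1.42.0 and limma 3.58.1 (voom) were among the alternatives.

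The members, lists and alternatives were chosen with earlier results of these data known. A pathway gene is not reported here and was left out of its list and the counts. Named genes were all members, per list up to 4 that passed and the 2 most abundant that did not, and the 5 most like Fst, except where the text says otherwise. Likeness used log2 CPM with a prior count of 2, among genes with a mean of at least 1 CPM and no predicted-gene name.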

Additional observations from a re-analysis of the deposited data

How the results depend on the processing

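The log2 fold change of Fst kept its direction and its call under all 16 alternatives (-3.75 to -2.83; -3.65 to -2.83 with a library left out). Its call was close to the threshold without HFCF replicate 1 or 2 and with the mitochondrial covariate. All these fits reuse the libraries on which Fst was chosen, and so give its fall no independent support. The number of members called, 5 as reported, was 1 (Fst) with the replicate block, 1 (Fst) under the mitochondrial covariate, and 1 to 5 with a library left out. The number of pathway genes called, 2 as reported, was 7 by DESeq2, 0 with the replicate block (11 at an unadjusted p under 0.05), 0 with the covariate (9 at an unadjusted p under 0.05), both in edgeR's quasi-likelihood test, and 0 to 4 with a library left out. All genes called numbered 1170 as reported, 2534 by DESeq2, 698 without a low-count filter, 180 with the replicate block, 207 with the covariate and 88 to 1310 with a library left out. The lowest of these last counts came without HFCF replicate 2 and the highest without OP replicate 3. The cause of these differences was not tested.

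No pairing by replicate number was seen. The deviations of same-numbered libraries from their group means correlated at 0.0229, -0.126 and -0.164, and no library correlated best with its own number. With 3 libraries per group the deviations depend on each other, so these values cannot settle whether same-numbered libraries share a batch. The sign changed for Acvr2a with the covariate (0.046) and for Acvr2b without HFCF replicate 3 (0.0047; -0.49 to 0.0047 with a library left out), neither of which was called. Calculated on the longest transcript, the level was 2.38 RPKM in HFCF and 0.272 in OP for Fst, 1.73 and 2.20 for Acvr1, and 0.762 in OP for Acvr2b, since these transcripts are shorter than the merged exons. Leaving out globin and mitochondrially encoded genes, chosen after seeing the data, left the same 5 members called. Dividing counts by 4, tried because read pairs may have been counted several times, also left 5 called. Low counts limit Inhbb in HFCF, Fst in OP and Fstl3 throughout.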

Other observations

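Some genes of the family had a single library far from its group. Tgfbr1, a type I receptor of TGF-beta, had 967, 1110 and 1060 counts in HFCF and 116, 990 and 908 in OP, with OP replicate 1 the low one. Bmp5 had 223, 191 and 187 counts in HFCF and 272, 235 and 0 in OP, with OP replicate 3 at 0. Hamp2, a paralog of the hepcidin gene, had 377, 275 and 971 counts in HFCF and 4340, 1303 and 1159 in OP. Hamp itself did not pass the test. On the CPM scale its OP libraries lay below its HFCF libraries, but OP replicate 1 (914.2) and HFCF replicate 2 (914.9) were nearly equal. Gdf15, a stress-induced hormone of the same family, had 1.12, 0.769 and 4.24 CPM in HFCF and 8.91, 5.76 and 3.91 CPM in OP, with HFCF replicate 3 inside the OP range. These genes were chosen after their values were seen.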
